A study of Mus musculus with 12 samples.

Results

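The expression of 39 germline and meiosis genes was examined by RNA sequencing in mouse embryonic stem cells (ESCs) and in epiblast-like cells (EpiLCs), with and without repression of Pcx, Me1 and Me2, the enzymes of the pyruvate-malate cycle. The 39 genes were taken by symbol from a fixed list of genes that DNA methylation and the polycomb complex PRC1.6 are known to keep silent in somatic cells, and their estimated counts were summed over transcripts. All 39 had 10 or more counts in total and so stood among the 25446 genes tested, of 57180 genes in the files, and 38 reached a mean of 0.5 CPM (counts scaled to library size) in at least 1 group. Of these, 26 reached a mean of 10 CPM in at least 1 group. The name of a silenced gene set therefore went against most of the values, and DNA methylation was not measured. Every member had counts in every group, though Syce3, Piwil4, Tdrd6 and Mei1 stayed under 0.5 CPM in Neg ESCs. Spo11, which encodes the nuclease that makes meiotic double-strand breaks, was the 1 member under 0.5 CPM in every group, with 0 to 0.248 CPM per library.

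The samples fell into 4 groups of 3 libraries, all made from E14 ESCs that carry a doxycycline-inducible CRISPR interference system. Neg cells carried scramble guides, and 3×KD cells carried guides near the transcription starts of the 3 enzyme genes. Neg and 3×KD ESCs were kept in N2B27 with 2i and LIF, and Neg and 3×KD EpiLCs had been differentiated to day 2 with Activin A, Fgf2 and XAV939. The parental line was a picked clone by the study's methods, and the labels do not name the doxycycline status of each library. The paper's legend for the expression of metabolic genes describes Neg and 3×KD cells of both states as treated with doxycycline. The labels' cell type entries put all Neg libraries in ESCs and all 3×KD libraries in EpiLCs, against the sample titles, which were followed here. The labels number the replicates without saying that they came from separate cultures, so p-values measure the spread between these libraries. The paper's methods give biological replicates for its experiments in general, without describing the cultures behind each library.

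Germline genes of this kind encode proteins that gametes need and that other cells hardly use. Meiotic chromosomes are held by a cohesin with its own subunits and paired by the synaptonemal complex, while PIWI proteins and tudor-domain proteins of the germ granule use piRNAs to silence transposons. Many of these genes have promoters rich in CpG that are methylated when the epiblast implants, and before that PRC1.6 binds many of them through MGA and MAX, which recognise E-boxes, and through E2F6.

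The total of estimated counts per library was between 11221023 and 19652197. The targeted genes were lower in every 3×KD library than in every Neg library of the same state: Pcx with a log2 fold change of -1.14 ± 0.071 (SE, edgeR adjusted p = 1.67e-09) in ESCs and -1.05 ± 0.067 (SE, edgeR adjusted p = 2.39e-09) in EpiLCs, Me1 with -0.89 and -1.05, and Me2 with -0.95 and -0.98. The states stood apart by their markers. The summed level of 8 naive markers, such as Zfp42 and Esrrb, ranged from 5113 to 5274 CPM in Neg ESCs and from 340.8 to 356 CPM in Neg EpiLCs, and that of 6 formative markers, such as Fgf5 and Otx2, from 135.5 to 136.4 and from 1989 to 2287 CPM. Both sums also moved with 3×KD. Naive markers ranged from 3976 to 4048 CPM in 3×KD ESCs and from 472.8 to 486.9 CPM in 3×KD EpiLCs. Formative markers ranged from 118.5 to 129.4 CPM in 3×KD ESCs and from 956.8 to 979.8 CPM in 3×KD EpiLCs. The 9 primordial germ cell markers summed to between 240.1 and 242.2 CPM in Neg ESCs, 280.9 and 290.7 in 3×KD ESCs, 48.03 and 51.17 in Neg EpiLCs and 75.47 and 79.58 in 3×KD EpiLCs, with Nanos2 at 0 in every library and Nanos3 at no more than 0.537 CPM. The 2-cell-like markers (9 genes, among them Zscan4c and Zscan4d) summed to between 454.9 and 531.6 CPM in the Neg groups and 3×KD ESCs, while 3×KD EpiLCs ranged from 928.5 to 982.4 CPM. The primitive endoderm and trophoblast markers summed to no more than 33.1 and 7.506 CPM in any library. By the test and limits given below for the 3×KD comparison, 5 of 6 formative markers were called lower in 3×KD EpiLCs. There, 4 of 8 naive markers were called higher and 1 lower, and 4 of 9 2-cell-like markers higher. Of 8 primordial germ cell markers tested, 3 were called higher and 1 lower. Over all genes tested, the shares in 3×KD EpiLCs were 7.88% higher and 5.35% lower. In 3×KD ESCs, 4 of 8 naive markers were called lower and none higher, and of 6 formative markers 1 was called higher and 2 lower. Of 8 primordial germ cell markers tested there, 2 were called higher and 1 lower, and of 9 2-cell-like markers none higher and 1 lower. The shares of all genes in 3×KD ESCs were 8.50% higher and 6.76% lower. The part of these cell types in the results that follow was not tested, and in bulk samples fewer cells of a type and less RNA per cell cannot be told apart.

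Promoter sequence was compared because PRC1.6 is recruited through E-boxes and E2F sites. RefSeq windows of 300 bases (250 before and 50 after the start, GRCm38.p6) were at hand for 33 of the 39 members. The E-box CACGTG was present in 14 of these 33 (42.4%) and in 8.09% of the 27025 genes in the table, and the E2F-like letters TCCCGC, on either strand (GCGGGA), in 13 (39.4%) against 22% of all. Both were present in 7 members (21.2%, against 2.65% of all): Sycp1, Sycp3, Syce2, Stag3, Hormad1, Mael and Ddx4. The motifs were searched separately, so a shared end letter was allowed. For a gene with several windows, a motif counted if any window held it, and the highest CpG and GC values were taken. By gene, the median number of CpGs was 19 in the members and 8 over all genes, with a median observed to expected ratio of 0.7 against 0.415. The members were listed as targets of PRC1.6 and DNA methylation, so a surplus of these motifs and CpGs is partly given by that choice. Both motifs contain a CpG, and the median GC content was 61.7% in the members and 53.3% over all genes. In 3×KD ESCs the E-box was held by 1 of 7 members called higher, 1 of 4 called lower and 12 of 22 not called. In 3×KD EpiLCs it was held by 2 of 5, 4 of 8 and 8 of 20. These are matches of letters and not measured binding.

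The bases before the start are shown for 4 members whose level differed in the same direction with 3×KD in ESCs and EpiLCs: Mael, which was higher, and Dazl, Tex19.1 and Tdrd9, which were lower. Each is given 5′ to 3′ on the gene's strand, up to its first annotated exon, in GRCm39 coordinates found by an exact match, with the E-box and the E2F-like letters in capitals.
Mael, chr1:166066332-166066563, minus strand, 232 bases: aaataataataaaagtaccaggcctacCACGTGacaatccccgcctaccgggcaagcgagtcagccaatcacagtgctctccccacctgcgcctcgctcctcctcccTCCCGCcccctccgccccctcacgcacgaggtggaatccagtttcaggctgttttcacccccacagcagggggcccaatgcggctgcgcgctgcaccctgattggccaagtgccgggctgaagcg
Dazl, chr17:50600665-50600898, minus strand, 234 bases: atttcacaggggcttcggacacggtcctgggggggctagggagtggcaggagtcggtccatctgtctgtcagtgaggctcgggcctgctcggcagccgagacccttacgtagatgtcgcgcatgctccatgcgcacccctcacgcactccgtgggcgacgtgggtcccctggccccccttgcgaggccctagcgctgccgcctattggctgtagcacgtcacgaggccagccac
Tex19.1, chr11:121036719-121036968, plus strand, 250 bases: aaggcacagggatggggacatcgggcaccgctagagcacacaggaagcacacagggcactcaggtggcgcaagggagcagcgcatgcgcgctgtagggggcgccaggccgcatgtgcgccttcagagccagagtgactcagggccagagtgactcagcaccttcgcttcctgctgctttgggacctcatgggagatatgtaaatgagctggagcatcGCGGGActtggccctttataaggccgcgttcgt
Tdrd9, chr12:111937743-111937964, plus strand, 222 bases: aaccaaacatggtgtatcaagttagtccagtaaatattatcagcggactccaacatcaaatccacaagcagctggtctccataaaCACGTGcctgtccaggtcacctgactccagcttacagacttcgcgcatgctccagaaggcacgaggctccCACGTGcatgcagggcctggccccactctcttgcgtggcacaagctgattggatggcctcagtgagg
Mael carried 1 E-box and 1 E2F-like site, Tdrd9 carried 2 E-boxes, Tex19.1 carried 1 E2F-like site, and Dazl carried neither while holding the most CpGs of the 4, 19. The 4 genes thus differed in motif content and in direction, and neither motif was shared by the 3 that were lower. An exon of the non-coding gene Gm70596 overlaps the Mael stretch.

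Levels can be compared between genes only per length, in TPM (transcript abundance scaled to length and library). In Neg ESCs, Dazl, an RNA-binding protein of germ cells, led the 39 genes at 106 ± 21.0 TPM (SD, n = 3), followed by Tex19.1, a regulator of retrotransposons in germ cells and placenta, at 75.8 ± 13.4 TPM, and Sohlh2, a transcription factor of early spermatogonia and oocytes, at 43.8 ± 8.46 TPM. The range of Sohlh2 there overlapped that of Syce2, the next gene. In Neg EpiLCs, Tex19.1 led at 153 ± 9.19 TPM and Dazl was second at 63.5 ± 6.40 TPM, with a range that overlapped that of Sohlh2. In 3×KD EpiLCs, Tex19.1 stood at 70.4 ± 8.99 TPM and Dazl at 25.3 ± 3.68 TPM. Dazl there lay behind Syce2, Stag3, Sohlh2, Mael, Stra8 and Sycp3, and its range overlapped those of Stra8 and Sycp3. At the other end, Spo11, Tdrd6, Mei1, Piwil4, Piwil1 and Majin stayed under 1 TPM in the mean of every group.

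**Figure D1:**
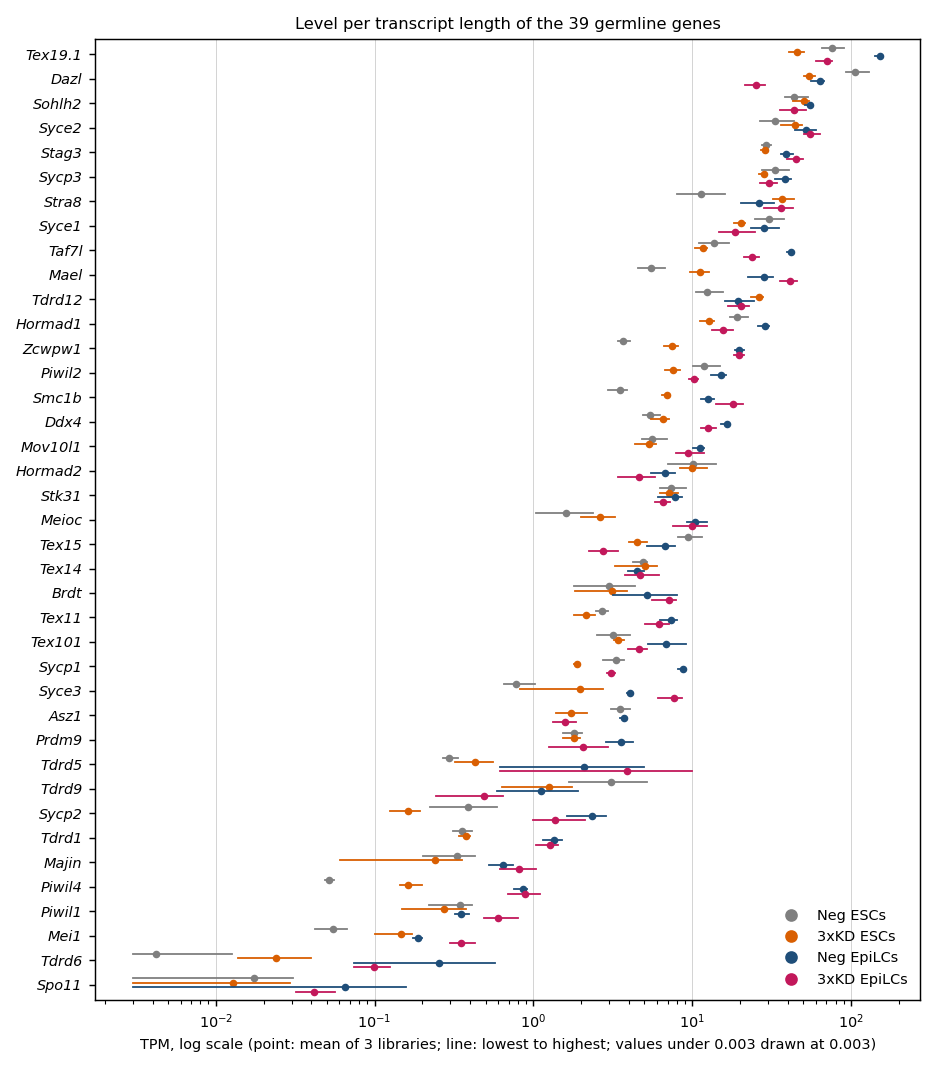
Level of the 39 germline genes per transcript length, in TPM on a log axis, with the mean (point) and the lowest to highest of 3 libraries (line) for each of the 4 groups. Dazl has the highest mean in Neg ESCs and Tex19.1 in Neg EpiLCs, and Spo11 has the lowest in every group except Neg ESCs, where Tdrd6 lies lower.

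The question of the 3×KD comparison was which germline genes differ when the pyruvate-malate cycle enzymes are repressed. In ESCs, 7 of the 39 members were higher and 5 lower in 3×KD than in Neg (edgeR adjusted p under 0.01 and a log2 fold change beyond 0.58), beside 8.50% higher and 6.76% lower of all 25446 genes tested. In EpiLCs, 5 were higher and 9 lower, beside 7.88% and 5.35% of all genes. Among the 17048 genes with a mean of 0.5 CPM or more over all libraries, the shares were 12.3% higher and 9.78% lower in ESCs, and 11.4% and 7.82% in EpiLCs. The members went both ways: their median log2 fold change was 0.134 in ESCs and -0.063 in EpiLCs, beside 0.026 and 0.032 over all genes. In both states, 4 members were higher (Smc1b, Mael, Mei1 and Stra8), 5 were lower (Asz1, Tdrd9, Tex19.1, Tex15 and Dazl), and none was called in opposite directions. The share of all genes called alike in both states was not computed, so these counts are not read as a trait of the members. With transcript-length offsets (counts corrected for the length of the transcripts in use), 1 member was higher and 7 lower in 3×KD EpiLCs, and the calls of Smc1b, Mei1, Stra8 and Piwil1 there were lost (adjusted p = 0.0115, 0.016, 0.0137 and 0.0446). With DESeq2, 3 were higher and 9 lower in 3×KD EpiLCs, and with the Neg and 3×KD ESCs fitted alone 5 were higher and 6 lower in ESCs.

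Among the regulators of germ cell entry into meiosis, Stra8 and Dazl moved in opposite directions. Stra8, the retinoic acid-responsive switch for meiotic entry, was at 18.2, 16.7 and 17.0 CPM in Neg ESCs and 60.1, 61.3 and 63.5 CPM in 3×KD ESCs, a log2 fold change of 1.84 ± 0.075 (SE, edgeR adjusted p = 1.70e-11). In EpiLCs, Stra8 was at 26.5, 33.7 and 27.3 CPM in Neg and 50.1, 49.5 and 49.0 CPM in 3×KD, a log2 fold change of 0.77 ± 0.071 (SE, edgeR adjusted p = 2.02e-07). Every 3×KD library was above every Neg library of its state, and Stra8 was highest in 3×KD ESCs. With transcript-length offsets the EpiLC difference had an adjusted p of 0.0137 and was not called. Dazl was at 346, 361 and 352 CPM in Neg ESCs and 211, 192 and 217 CPM in 3×KD ESCs, a log2 fold change of -0.77 ± 0.044 (SE, edgeR adjusted p = 5.94e-10). In EpiLCs it was at 170.3, 171 and 184 CPM in Neg and 82.3, 83.9 and 80.7 CPM in 3×KD, a log2 fold change of -1.09 ± 0.046 (SE, edgeR adjusted p = 3.01e-11). The groups did not overlap in either state, and the lowest Dazl level was that of 3×KD EpiLCs. Here and below, genes picked for a call tend to have groups that stand apart, so this adds no support to the call. The share of all genes with groups apart was not computed.

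Of the other regulators, Taf7l, a germ cell paralog of the TFIID subunit TAF7, was lower in 3×KD EpiLCs. It was at 85.2, 84.0 and 85.1 CPM in Neg EpiLCs and 54.1, 54.7 and 53.1 CPM in 3×KD EpiLCs (log2 fold change -0.65 ± 0.05 SE, edgeR adjusted p = 2.40e-08), while in ESCs it was at 36.0, 34.0 and 30.3 CPM in Neg and 29.3, 30.5 and 29.8 CPM in 3×KD, groups that overlapped (log2 fold change -0.15 ± 0.056 SE). Sohlh2 was at 149, 150.2 and 143 CPM in Neg ESCs and 179, 185 and 190.1 CPM in 3×KD ESCs, and at 159, 151 and 157 CPM in Neg EpiLCs and 145, 142 and 131 CPM in 3×KD EpiLCs. Its log2 fold changes, 0.33 in ESCs (edgeR adjusted p = 5.66e-06) and -0.16 in EpiLCs (edgeR adjusted p = 0.00498), lay inside the fold limit. Meioc, which works with YTHDC2 to keep the meiotic programme going, had log2 fold changes of 0.50 ± 0.067 in ESCs and -0.073 ± 0.051 in EpiLCs. The bromodomain gene Brdt, the germ cell bridge gene Tex14 and Tex101, a germ cell surface glycoprotein, did not pass in either state, with log2 fold changes from -0.39 to 0.36.

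**Figure D2:**
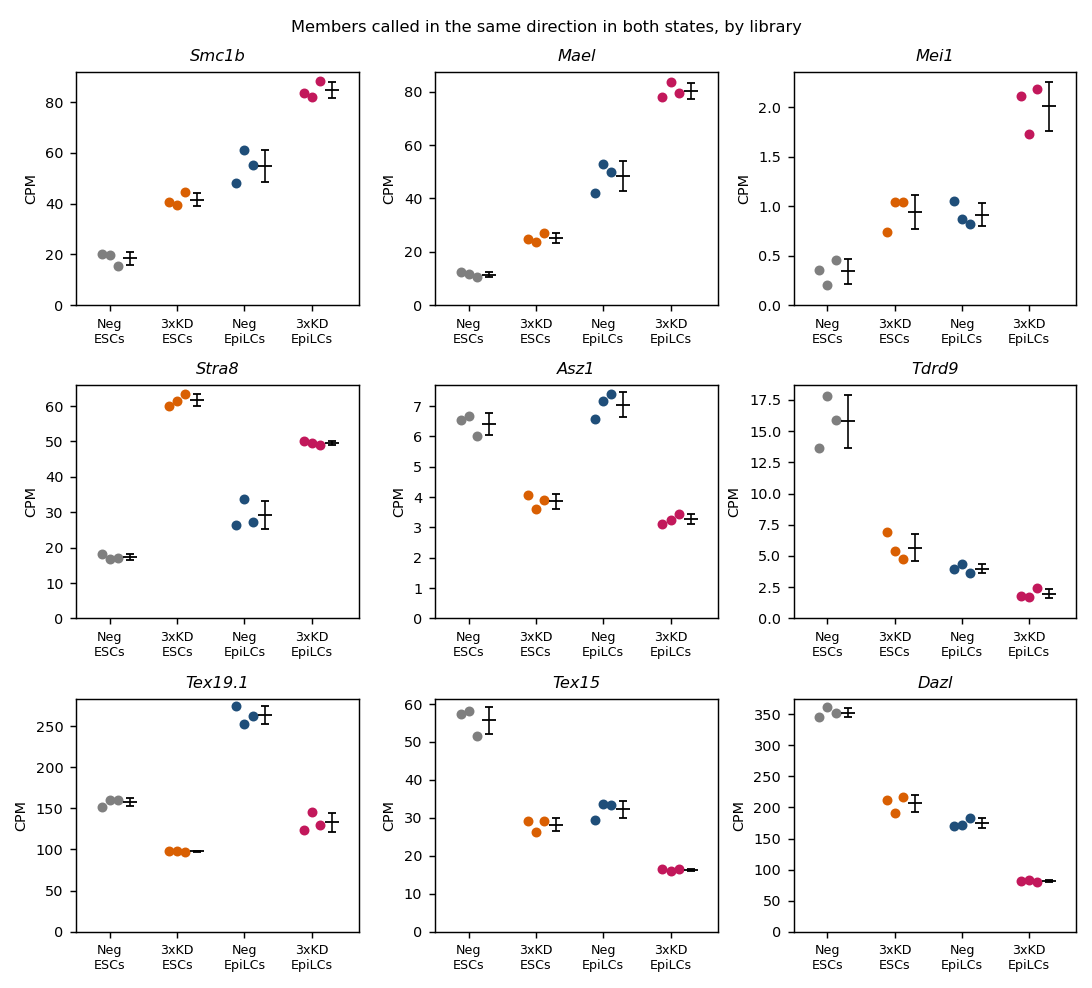
CPM in each of the 12 libraries (points) with the mean and SD of 3 (black) for the 9 germline genes that passed the test in the same direction in both states, each panel starting at 0. The genes were chosen for these calls, so the side of Neg on which their 3×KD points lie is given by the choice.

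In the piRNA and germ granule group, 3 of 14 members were higher and 3 lower in 3×KD ESCs (21.4% each, beside 8.50% and 6.76% of all genes), and 2 were higher and 3 lower in 3×KD EpiLCs (14.3% and 21.4%, beside 7.88% and 5.35%). Mael, a germ granule protein of the piRNA pathway, was at 12.2, 11.6 and 10.4 CPM in Neg ESCs and 24.9, 23.6 and 27.2 CPM in 3×KD ESCs (log2 fold change 1.16 ± 0.092 SE, edgeR adjusted p = 3.08e-08). It was at 42.2, 53.1 and 50.05 CPM in Neg EpiLCs and 78.0, 83.7 and 79.5 CPM in 3×KD EpiLCs (log2 fold change 0.73 ± 0.074 SE, edgeR adjusted p = 5.32e-07). No pair of the 4 groups overlapped, and its level was lowest in Neg ESCs and highest in 3×KD EpiLCs. Tdrd12, a tudor-domain helicase of secondary piRNA production, was at 29.2, 29.2 and 27.2 CPM in Neg ESCs and 63.2, 60.3 and 62.1 CPM in 3×KD ESCs (log2 fold change 1.12 ± 0.062 SE, edgeR adjusted p = 4.61e-10). In EpiLCs it was at 36.9, 33.4 and 39.8 CPM in Neg and 42.0, 45.5 and 41.9 CPM in 3×KD (log2 fold change 0.23 ± 0.061 SE), apart but inside the fold limit. The 3×KD ESC libraries were thus the highest for Tdrd12.

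Of the PIWI proteins, Piwil2 (MILI) was the most abundant and did not pass the fold limit. It was at 56.9, 66.3 and 59.2 CPM in Neg ESCs and 45.6, 43.8 and 49.96 CPM in 3×KD ESCs (log2 fold change -0.39 ± 0.064 SE), and at 63.5, 71.6 and 69.0 CPM in Neg EpiLCs and 49.5, 51.4 and 49.7 CPM in 3×KD EpiLCs (log2 fold change -0.44 ± 0.063 SE). Piwil4 (MIWI2), which directs DNA methylation of transposons in fetal male germ cells, was at 0.266, 0.138 and 0.204 CPM in Neg ESCs, from 9 counts in all, and 0.676, 0.488 and 0.914 CPM in 3×KD ESCs (log2 fold change 1.76 ± 0.36 SE, edgeR adjusted p = 0.00112). Without Neg ESCs replicate 2 or 3×KD ESCs replicate 3 that call was lost, with values from 1.51 to 1.96 over the libraries left out, and it was lost when the 2 groups were fitted alone (adjusted p = 0.0139). In EpiLCs the Piwil4 groups overlapped, at 3.33, 3.29 and 3.60 CPM in Neg and 3.54, 3.71 and 3.43 CPM in 3×KD. Piwil1 (MIWI), a PIWI protein of later spermatogenesis, was at 1.29, 1.27 and 1.90 CPM in Neg EpiLCs and 2.98, 2.62 and 3.18 CPM in 3×KD EpiLCs (log2 fold change 0.97 ± 0.22 SE, edgeR adjusted p = 0.00216). In ESCs Piwil1 was at 2.04, 1.58 and 1.48 CPM in Neg and 1.11, 1.46 and 1.31 CPM in 3×KD (log2 fold change -0.37 ± 0.24 SE). The Piwil1 call in EpiLCs was lost without Neg EpiLCs replicate 1 or 2 or 3×KD EpiLCs replicate 3, with DESeq2 (adjusted p = 0.0101) and with transcript-length offsets (adjusted p = 0.0446).

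The germ granule members that fell were Tex19.1, Asz1 and Tdrd9. Tex19.1 was at 152, 161 and 160.4 CPM in Neg ESCs and 98.0, 98.3 and 96.8 CPM in 3×KD ESCs (log2 fold change -0.69 ± 0.052 SE, edgeR adjusted p = 1.43e-08). It was at 275, 253 and 263 CPM in Neg EpiLCs and 123, 146 and 129.7 CPM in 3×KD EpiLCs (log2 fold change -0.99 ± 0.05 SE, edgeR adjusted p = 1.99e-10), so that 3×KD EpiLCs stayed below Neg ESCs. Asz1 (GASZ), a mitochondrial scaffold of the piRNA machinery, was at 6.56, 6.67 and 6.01 CPM in Neg ESCs and 4.05, 3.60 and 3.92 CPM in 3×KD ESCs (log2 fold change -0.73 ± 0.12 SE, edgeR adjusted p = 0.000111). In EpiLCs Asz1 was at 6.59, 7.18 and 7.39 CPM in Neg and 3.10, 3.26 and 3.43 CPM in 3×KD (log2 fold change -1.11 ± 0.12 SE, edgeR adjusted p = 1.47e-06). Tdrd9, a tudor-domain helicase that acts with PIWIL4, was at 13.6, 17.8 and 15.9 CPM in Neg ESCs and 6.88, 5.36 and 4.77 CPM in 3×KD ESCs (log2 fold change -1.48 ± 0.15 SE, edgeR adjusted p = 4.81e-07). It was at 3.94, 4.36 and 3.67 CPM in Neg EpiLCs and 1.80, 1.73 and 2.43 CPM in 3×KD EpiLCs (log2 fold change -1.001 ± 0.19 SE, edgeR adjusted p = 0.00038). The groups of all 3 genes stood apart in both states, which is nearly given by their calls. The Tdrd9 calls were lost with transcript-length offsets (-1.09 with adjusted p = 0.132 in ESCs, -0.97 with adjusted p = 0.249 in EpiLCs). The share of the Tdrd9 level given to its leading transcript ranged from 29.7% to 100% over libraries of Neg EpiLCs.

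Ddx4 (VASA), the helicase that marks germ cells, was at 23.7, 23.1 and 24.0 CPM in Neg ESCs and 30.1, 31.8 and 31.2 CPM in 3×KD ESCs (log2 fold change 0.39 ± 0.048 SE), and at 60.3, 59.9 and 60.9 CPM in Neg EpiLCs and 51.4, 51.2 and 54.1 CPM in 3×KD EpiLCs (log2 fold change -0.21 ± 0.043 SE). Its groups did not overlap in either state and lay in opposite orders, both inside the fold limit. The remaining granule members did not pass in either state: Mov10l1, the helicase that feeds piRNA precursors to PIWI proteins, the kinase-like gene Stk31, and the tudor-domain genes Tdrd1, Tdrd5 and Tdrd6. Their log2 fold changes ranged from -0.19 (Mov10l1, EpiLCs) to 1.83 (Tdrd6, ESCs), the last resting on 3 counts in Neg ESCs and 12 in 3×KD ESCs.

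In the synaptonemal complex and cohesin group, 1 of 10 members was higher and none lower in 3×KD ESCs, a share near the 8.50% of all genes, and 1 was higher and 2 lower in 3×KD EpiLCs, beside 7.88% and 5.35% of all genes. The member that was higher in both states was Smc1b, the meiotic form of the cohesin core subunit SMC1. Smc1b was at 20.03, 19.7 and 15.6 CPM in Neg ESCs and 40.5, 39.6 and 44.4 CPM in 3×KD ESCs (log2 fold change 1.19 ± 0.10 SE, edgeR adjusted p = 3.43e-08). In EpiLCs it was at 48.2, 61.1 and 55.0 CPM in Neg and 83.4, 82.2 and 88.3 CPM in 3×KD (log2 fold change 0.63 ± 0.083 SE, edgeR adjusted p = 1.03e-05). No groups of a state overlapped, and the EpiLC call was lost without Neg EpiLCs replicate 1, with a log2 fold change inside the limit (values from 0.55 to 0.72), and with transcript-length offsets (adjusted p = 0.0115). Stag3, the meiotic cohesin subunit that works with SMC1B, was at 81.8, 81.6 and 83.3 CPM in Neg ESCs and 110.4, 101 and 101 CPM in 3×KD ESCs (log2 fold change 0.34 ± 0.051 SE). In EpiLCs it was at 100.0027, 114 and 99.2 CPM in Neg and 146, 142 and 144 CPM in 3×KD (log2 fold change 0.46 ± 0.05 SE), apart in both states but inside the fold limit.

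Sycp1, the transverse filament of the synaptonemal complex, was at 22.4, 22.6 and 26.3 CPM in Neg EpiLCs and 10.9, 9.78 and 12.5 CPM in 3×KD EpiLCs (log2 fold change -1.10 ± 0.10 SE, edgeR adjusted p = 8.95e-08). In ESCs it was at 12.5, 11.8 and 11.3 CPM in Neg and 8.17, 7.86 and 7.64 CPM in 3×KD, a log2 fold change of -0.580 that fell just short of the limit (edgeR adjusted p = 0.000228). Hormad1, a chromosome axis protein, was at 36.2, 34.5 and 35.3 CPM in Neg ESCs and 25.4, 25.4 and 25.6 CPM in 3×KD ESCs (log2 fold change -0.47 ± 0.048 SE). In EpiLCs Hormad1 was at 43.4, 45.2 and 44.2 CPM in Neg and 27.4, 27.2 and 26.5 CPM in 3×KD (log2 fold change -0.71 ± 0.047 SE, edgeR adjusted p = 3.78e-09). Both genes were lower in every 3×KD library of either state.

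Syce1, a central element protein, was at 53.0, 52.8 and 49.1 CPM in Neg ESCs and 36.4, 40.0 and 36.8 CPM in 3×KD ESCs (log2 fold change -0.45 ± 0.055 SE), and at 38.8, 41.3 and 43.0 CPM in Neg EpiLCs and 31.6, 30.3 and 30.8 CPM in 3×KD EpiLCs (log2 fold change -0.41 ± 0.056 SE). Its partner Syce2 lay the other way, with 0.48 ± 0.059 in ESCs and 0.32 ± 0.057 in EpiLCs, and both stayed inside the fold limit. Sycp3, a lateral element protein, was at 48.6, 47.2 and 43.3 CPM in Neg ESCs and 46.1, 41.7 and 41.7 CPM in 3×KD ESCs, and at 43.5, 46.0 and 46.3 CPM in Neg EpiLCs and 39.8, 40.8 and 40.9 CPM in 3×KD EpiLCs, and it did not pass in either state. Exons of Chpt1 on the opposite strand cover 48.5% of the exonic bases of Sycp3, so the assignment of its reads rests on the strand setting. Sycp2, Syce3 and Hormad2 did not pass in either state. Syce3 had the highest value of the group, 1.42 ± 0.47 in ESCs with an edgeR adjusted p of 0.0236, from 13 counts in Neg ESCs.

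In the recombination and meiotic chromosome group, 2 of 7 members were higher and 1 lower in 3×KD ESCs (beside 8.50% and 6.76% of all genes), and 1 was higher and 2 lower in 3×KD EpiLCs (beside 7.88% and 5.35%). Zcwpw1, a reader of the histone marks that PRDM9 writes, was at 12.5, 10.3 and 11.2 CPM in Neg ESCs and 19.7, 19.19999 and 19.5 CPM in 3×KD ESCs (log2 fold change 0.79 ± 0.074 SE, edgeR adjusted p = 2.17e-07). In EpiLCs it was at 45.1, 44.2 and 39.9 CPM in Neg and 47.2, 48.4 and 49.9 CPM in 3×KD (log2 fold change 0.17 ± 0.061 SE). Prdm9, the histone methyltransferase that places recombination hotspots, lay lower, at 5.48, 4.70 and 3.98 CPM in Neg EpiLCs and 2.98, 2.30 and 2.06 CPM in 3×KD EpiLCs (log2 fold change -0.95 ± 0.18 SE, edgeR adjusted p = 0.00049). In ESCs Prdm9 was at 2.48, 2.55 and 3.01 CPM in Neg and 1.90, 1.77 and 1.76 CPM in 3×KD (edgeR adjusted p = 0.0306). The CPM of Prdm9 in 3×KD ESCs thus lay below Neg without passing the test. Per length, Prdm9 was at 1.79 ± 0.241 TPM (SD, n = 3) in Neg ESCs and 1.811 ± 0.239 TPM in 3×KD ESCs, so the difference was not seen there. Its leading annotated transcript is one with a retained intron. With transcript-length offsets the Prdm9 call in EpiLCs was lost (adjusted p = 0.0571).

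Tex15, which acts in meiotic repair and in piRNA-directed silencing, was at 57.2, 58.3 and 51.7 CPM in Neg ESCs and 29.2, 26.3 and 29.2 CPM in 3×KD ESCs (log2 fold change -0.98 ± 0.066 SE, edgeR adjusted p = 4.23e-09). In EpiLCs Tex15 was at 29.6, 33.8 and 33.3 CPM in Neg and 16.5, 16.0 and 16.5 CPM in 3×KD (log2 fold change -0.98 ± 0.071 SE, edgeR adjusted p = 1.15e-08). Mei1, which is needed for meiotic double-strand breaks, was at 0.354, 0.206 and 0.459 CPM in Neg ESCs and 0.737, 1.04 and 1.05 CPM in 3×KD ESCs (log2 fold change 1.41 ± 0.35 SE, edgeR adjusted p = 0.00368). It was at 1.05, 0.872 and 0.822 CPM in Neg EpiLCs and 2.11, 1.73 and 2.18 CPM in 3×KD EpiLCs (log2 fold change 1.13 ± 0.28 SE, edgeR adjusted p = 0.00378). The 3×KD and Neg libraries of both genes stood apart in each state. The Mei1 calls rested on few counts and were lost with DESeq2 (adjusted p = 0.022 in ESCs and 0.0218 in EpiLCs), in ESCs also when the 2 groups were fitted alone (adjusted p = 0.0156). They were also lost without Neg ESCs replicate 2 or 3×KD ESCs replicate 2 or 3 in ESCs, and without Neg EpiLCs replicate 2 or 3 or 3×KD EpiLCs replicate 1 or 3 in EpiLCs. The telomere attachment gene Majin and the recombination gene Tex11 did not pass in either state.

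The states were compared to ask how the same genes differ between naive ESCs and EpiLCs day 2. In Neg cells, 20 members were higher and 4 lower in EpiLCs, beside 9.78% and 11.0% of all genes tested. In 3×KD cells, 18 were higher and 4 lower, beside 9.42% and 9.32% of all genes. Among the genes of 0.5 CPM or more, the shares were 13.5% higher and 15.7% lower in Neg, and 13.2% and 13.4% in 3×KD. The median log2 fold change of the members was 0.756 in Neg and 0.487 in 3×KD, beside 0.011 over all genes in each. In both lines, 15 members were higher in EpiLCs and 4 were lower, and the share of all genes called alike in both lines was not computed.

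In Neg cells the largest differences between the states were those of Piwil4 and Tdrd6, each from few counts in Neg ESCs (9 and 3). Piwil4, whose library values are given above, had a log2 fold change of 4.05 ± 0.29 (SE, edgeR adjusted p = 4.76e-09) in Neg and 2.36 ± 0.23 (SE, edgeR adjusted p = 2.81e-07) in 3×KD. Tdrd6, a scaffold of the chromatoid body, was at 0, 0 and 0.153 CPM in Neg ESCs and 0.677, 1.07 and 1.07 CPM in Neg EpiLCs (edgeR adjusted p = 0.000193). Its 3×KD call was lost with DESeq2 (adjusted p = 0.0125). It was also lost with transcript-length offsets and the replicate block (adjusted p = 0.0981 and 0.0124) and when any 1 of 7 libraries was left out (3×KD ESCs replicates 1 and 3, Neg EpiLCs replicates 2 and 3, and 3×KD EpiLCs replicates 1, 2 and 3). Meioc was at 7.98, 8.05 and 7.65 CPM in Neg ESCs and 42.3, 42.7 and 43.1 CPM in Neg EpiLCs (log2 fold change 2.44 ± 0.06 SE, edgeR adjusted p = 4.22e-15), and Sycp2, a lateral element protein, at 1.595, 2.55 and 1.63 CPM in Neg ESCs and 11.6, 11.3 and 11.8 CPM in Neg EpiLCs (log2 fold change 2.59 ± 0.18 SE, edgeR adjusted p = 4.14e-09). The log2 fold change was 2.10 ± 0.088 for Mael, 1.94 ± 0.071 for Zcwpw1, 1.66 ± 0.13 for Tdrd1, 1.59 ± 0.094 for Smc1b, 1.35 ± 0.047 for Ddx4 and 1.35 ± 0.053 for Taf7l in Neg cells, and all of these were also called higher in 3×KD cells.

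**Figure D3:**
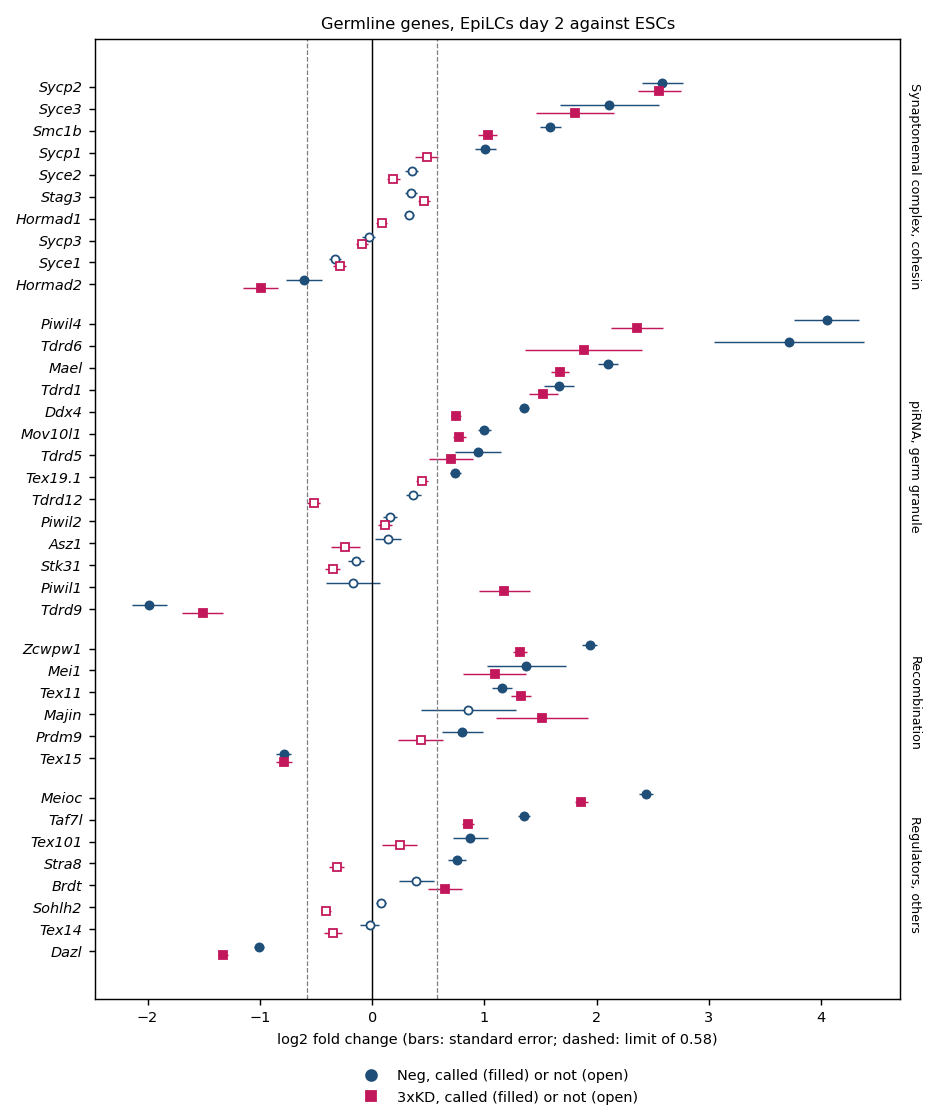
Log2 fold change of EpiLCs day 2 against ESCs for the 38 germline genes with 0.5 CPM or more in a group, in Neg (circles) and 3×KD cells (squares), with standard errors as bars; filled symbols passed the test. Of the genes that passed the test in both lines, 15 lie right of 0 and 4 left of it (Dazl, Tex15, Tdrd9 and Hormad2), and values that did not pass lie on both sides.

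Against this direction, 4 members were lower in EpiLCs in both lines. The share of members called lower, 10.3% in each line, was near that of all genes (11.0% in Neg and 9.32% in 3×KD). Tdrd9 had log2 fold changes of -1.99 ± 0.16 (SE, edgeR adjusted p = 1.32e-08) in Neg and -1.51 ± 0.18 (SE, edgeR adjusted p = 2.84e-06) in 3×KD, Dazl -1.011 ± 0.044 (SE, edgeR adjusted p = 6.62e-12) and -1.33 ± 0.046 (SE, edgeR adjusted p = 5.11e-13), and Tex15 -0.79 ± 0.065 (SE, edgeR adjusted p = 2.61e-08) and -0.79 ± 0.071 (SE, edgeR adjusted p = 1.05e-07). Hormad2, a chromosome axis protein related to HORMAD1, had -0.61 ± 0.16 (SE, edgeR adjusted p = 0.00445) in Neg, near the limit, and -0.99 ± 0.15 (SE, edgeR adjusted p = 5.02e-05) in 3×KD. The Hormad2 call in Neg was lost when any 1 of 6 libraries was left out (Neg ESCs replicates 2 and 3, 3×KD ESCs replicate 1, Neg EpiLCs replicates 1 and 3, and 3×KD EpiLCs replicate 3), with values from -0.75 to -0.48, with upper-quartile factors, with transcript-length offsets and when the 2 groups were fitted alone (adjusted p from 0.0117 to 0.0201). With transcript-length offsets the Tdrd9 calls were lost here too (adjusted p = 0.0222 in Neg and 0.0456 in 3×KD). Tdrd9, Dazl and Tex15 were also among the genes that were lower in 3×KD in both states, so that their lowest levels were those of 3×KD EpiLCs.

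Members called in 1 line of the state comparison had these log2 fold changes. Sycp1 (1.009 in Neg, 0.49 in 3×KD), Tex19.1 (0.74 and 0.44), Prdm9 (0.80 and 0.43), Stra8 (0.76 and -0.32) and Tex101 (0.87 and 0.25) passed in Neg only. Piwil1 (-0.17 and 1.18), Majin (0.86 and 1.51) and Brdt (0.39 and 0.65) passed in 3×KD only. When any 1 of 3 libraries was left out, the calls of Majin (3×KD ESCs replicate 3, 3×KD EpiLCs replicates 1 and 3) and Brdt (3×KD ESCs replicates 1 and 2, 3×KD EpiLCs replicate 1) were lost. The calls of Tdrd5 in 3×KD (without 3×KD ESCs replicate 1 or 2 or 3×KD EpiLCs replicate 1 or 2) and of Mei1 in Neg (without Neg ESCs replicate 1 or 2 or Neg EpiLCs replicate 1) and 3×KD (without 3×KD ESCs replicate 1 or 3×KD EpiLCs replicate 1 or 3) were lost likewise. With transcript-length offsets, beside Tdrd9, Hormad2 and Tdrd6 as given above, the calls of Prdm9 and Tdrd5 in Neg and of Piwil1, Mov10l1, Tdrd5, Majin, Brdt and Mei1 in 3×KD were lost, those of Majin, Tdrd5 and Mei1 in 3×KD also with DESeq2 (adjusted p = 0.0123, 0.0205 and 0.0223), that of Mei1 in Neg with DESeq2 (adjusted p = 0.024) and that of Tdrd5 with the replicate block (adjusted p = 0.0114). Mov10l1, Tex11 and Syce3 were higher in both lines, with 1.000, 1.16 and 2.11 in Neg.

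Whether the 3×KD effect itself differed between EpiLCs and ESCs was tested as the difference of the log2 fold changes, with an edgeR adjusted p under 0.01 and no fold limit. A higher effect in EpiLCs was found for 1 member and a lower one for 11, beside 4.76% and 5.27% of all genes tested. With library size alone as the scaling, 1 member was higher and 7 lower, without Dazl, Tex19.1, Smc1b and Piwil4, and the split over all genes turned from 1211 higher and 1342 lower to 1522 and 824. The median difference was -0.297 over the members and -0.001 over all genes. Tdrd12 (difference -0.89 ± 0.087 SE, edgeR adjusted p = 2.41e-06), Stra8 (difference -1.07 ± 0.10 SE, edgeR adjusted p = 2.02e-06) and Zcwpw1 (difference -0.62 ± 0.10 SE, edgeR adjusted p = 0.000242) were higher in 3×KD ESCs, with smaller differences in EpiLCs. Ddx4 (difference -0.60 ± 0.065 SE, edgeR adjusted p = 6.39e-06) and Sohlh2 (difference -0.49 ± 0.058 SE, edgeR adjusted p = 1.81e-05) lay above Neg in 3×KD ESCs and below it in 3×KD EpiLCs, each inside the fold limit. Meioc (difference -0.58 ± 0.084 SE, edgeR adjusted p = 0.000131) lay above Neg in 3×KD ESCs, inside the fold limit, and close to Neg in 3×KD EpiLCs. The log2 fold change of 3×KD against Neg was lower in EpiLCs than in ESCs for Taf7l (difference -0.50 ± 0.075 SE, edgeR adjusted p = 0.000182), Dazl (difference -0.32 ± 0.063 SE, edgeR adjusted p = 0.00204) and Tex19.1 (difference -0.30 ± 0.072 SE, edgeR adjusted p = 0.00837). It was also lower for Smc1b (difference -0.56 ± 0.13 SE, edgeR adjusted p = 0.00537) and Piwil4 (difference -1.69 ± 0.41 SE, edgeR adjusted p = 0.00923), and higher for Piwil1 (difference 1.35 ± 0.33 SE, edgeR adjusted p = 0.00929). The calls of Piwil1 and Piwil4 were lost without each of 11 of the 12 libraries in turn, that of Tex19.1 without 10 and that of Smc1b without 5. With transcript-length offsets these calls and those of Dazl and Meioc were lost (adjusted p from 0.0379 to 0.429).

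Genes of the same pathways outside the 39 were described as separate lists. Of 29 other meiosis genes tested, 8 were higher and 3 lower in 3×KD ESCs (27.6% and 10.3%), and 5 higher and 2 lower in 3×KD EpiLCs (17.2% and 6.9%). Over all genes the shares were 8.50% and 6.76% in ESCs and 7.88% and 5.35% in EpiLCs, and the shares lower were near these. In both states the largest called log2 fold changes were those of Meiob, a single-strand DNA-binding protein of meiotic recombination (2.06 in ESCs and 1.81 in EpiLCs), the crossover gene Cntd1 (1.61 and 1.47) and the germ cell cyclin Ccna1 (1.605 and 1.47), of which Meiob and Ccna1 rested on few counts (107 and 187 over the 12 libraries). Between states, 11 were higher and 1 lower in Neg EpiLCs (37.9% and 3.45%, beside 9.78% and 11.0% of all genes), led by the recombinase Dmc1 (1.76), Meiosin (1.55), the partner of STRA8, and Kash5 (1.49), a telomere anchor to the cytoskeleton. In 3×KD cells 12 were higher and 2 lower (41.4% and 6.9%, beside 9.42% and 9.32%), led by the cohesin gene Rad21l (2.88, from 69 counts over the 12 libraries and 0.184, 0.122 and 0 CPM in 3×KD ESCs), Brme1 (1.49) and Meiosin (1.43). The 3×KD effect differed between states for 1 of them, Mlh3 (0.41).

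Of 15 other piRNA and germ granule genes, 2 were higher and 2 lower in 3×KD ESCs (13.3% each, beside 8.50% and 6.76% of all genes), and 1 higher and 1 lower in 3×KD EpiLCs (6.67% each, beside 7.88% and 5.35%). Pld6, a mitochondrial factor in primary piRNA production, was higher in both states (log2 fold changes 0.87 and 0.89). In ESCs the piRNA methyltransferase Henmt1 was lower (-2.25, from 117 counts over the 12 libraries) and Tdrd7 higher (0.70), and in EpiLCs Tex19.2, the paralog of Tex19.1, was lower (-0.79). Between states, 5 were higher and 2 lower in Neg EpiLCs (33.3% and 13.3%, beside 9.78% and 11.0% of all genes), the share lower being near that of all genes. The largest changes were those of Tdrkh (2.45), a mitochondrial tudor-domain protein, Tcfl5 (1.54) and Fkbp6 (-1.44). In 3×KD cells, 7 were higher and 2 lower (46.7% and 13.3%, beside 9.42% and 9.32% of all genes), led by Henmt1 (2.98), Tcfl5 (1.83) and Tdrkh (1.51). Tdrkh was the gene of this list whose 3×KD effect differed between states (-0.94).

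Genes of the machinery that silences germline promoters were read from lists of their own. Dnmt3b, a de novo DNA methyltransferase, was at 91.6, 92.3 and 92.7 CPM in Neg ESCs and 1466, 1273 and 1363 CPM in Neg EpiLCs (log2 fold change 3.89 ± 0.051 SE, edgeR adjusted p = 1.29e-18). It was at 88.9, 86.4 and 80.7 CPM in 3×KD ESCs and 669, 659.8 and 659.7 CPM in 3×KD EpiLCs, below every Neg EpiLC library (log2 fold change -1.04 ± 0.045 SE, edgeR adjusted p = 3.21e-11). Its cofactor Dnmt3l was lower with 3×KD in ESCs (log2 fold change -0.64) and EpiLCs (-0.73) and higher in 3×KD EpiLCs than in 3×KD ESCs (2.88). Dnmt3a rose in Neg EpiLCs (3.00), with a 3×KD effect lower in EpiLCs than in ESCs (-0.82). Up to 3 called genes are named per comparison, so a comparison left out for Dnmt3l or Dnmt3a does not mean no change there. Dppa3, which limits maintenance methylation, was lower in Neg EpiLCs (-4.38) and in 3×KD ESCs (-0.82) and higher in 3×KD EpiLCs (1.28), and the 5-methylcytosine oxidase Tet2 was lower in 3×KD ESCs (-0.64). In all, 1 of 9 genes of this list was higher and 3 lower in 3×KD ESCs, 1 was higher and 2 lower in 3×KD EpiLCs, and 4 were higher and 2 lower in EpiLCs than in ESCs in each line. The shares were 11.1% and 33.3% in 3×KD ESCs, 11.1% and 22.2% in 3×KD EpiLCs and 44.4% and 22.2% between states, beside the shares of all genes given above. Between states in 3×KD cells, Dnmt3b was higher (2.96) and Dppa3 lower (-2.29), and the 3×KD effect in EpiLCs was lower for Dnmt3b (-0.93) and higher for Dppa3 (2.09) than in ESCs.

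Of 14 PRC1.6 subunits, none was higher and 1 lower in 3×KD ESCs, Max (log2 fold change -0.65), and none was higher and 2 lower in 3×KD EpiLCs, E2f6 (log2 fold change -0.69 ± 0.067 SE, edgeR adjusted p = 3.81e-07) and Rybp (-0.63). The share lower in ESCs, 7.14%, was near the 6.76% of all genes, and that in EpiLCs was 14.3% beside 5.35%. E2f6 and Pcgf6 were higher in Neg EpiLCs than in Neg ESCs (0.74 and 0.61), and Wdr5 was lower in EpiLCs in Neg (-0.71) and 3×KD (-0.58). The 3×KD effect on E2f6 (-0.60), Cbx3 (-0.44) and Rybp (-0.24) was lower in EpiLCs. Of 5 genes of histone H3 lysine-9 methylation, the methyltransferase Setdb1 was lower in 3×KD ESCs (log2 fold change -0.61 ± 0.035 SE, edgeR adjusted p = 7.76e-10) with a higher 3×KD effect in EpiLCs (0.24), its partner Atf7ip was lower in 3×KD EpiLCs (-0.63), and Ehmt2 was lower in 3×KD EpiLCs than in 3×KD ESCs (-0.65). The part of these genes in the levels of the 39 germline genes was not tested.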

How the data were processed

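RNA was taken from 12 libraries (rRNA depletion and a directional kit by the labels' protocol, although the labels' molecule field reads polyA). Per the labels, the authors trimmed reads with Trim Galore 0.6.7 and used STAR 2.7.9a and Salmon 1.10.1 on GRCm39. The files deposited by the authors hold expected counts (reads estimated by Salmon for each transcript) and TPM. Both were summed per gene with the deposited transcript table, and counts were rounded to whole numbers. Genes with 10 or more counts in total were tested with edgeR 4.0.16 (quasi-likelihood, TMM, 4 groups in a single fit, R 4.3.3), with Benjamini-Hochberg adjustment over all 25446 genes and a log2 limit of 0.58. CPM are TMM-normalized. SE is the log2 fold change divided by the root of F. DESeq2 1.42.0 was an alternative, and the fit was tested on simulated data. Salmon's split of reads between transcripts is estimated, so TPM and length-corrected counts carry that error as well. Members and lists were chosen with earlier results of these data known, so their counts beside the shares of all genes are descriptions. All members with 0.5 CPM or more are named, with library values for the 12 of highest mean CPM and those called in 3×KD against Neg. Library values given beyond these, and those of Dnmt3b, were chosen after their values were seen. Of each other list, up to 3 called genes of largest change per comparison are named. The 4 promoters are those of members called alike in both states, with at most 3 per direction by mean CPM, that hold 150 bases before the gene without a coding gene's exon.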

Additional observations from a re-analysis of the deposited data

Results flagged for a closer look

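The 3×KD effect differed between EpiLCs and ESCs for 12 of the 39 germline genes, by the edgeR test of the difference of log2 fold changes (EpiLCs minus ESCs). The difference was -0.56 for Smc1b, 1.35 for Piwil1, -1.69 for Piwil4, -0.89 for Tdrd12, -0.30 for Tex19.1, -0.60 for Ddx4, -0.62 for Zcwpw1, -0.32 for Dazl, -1.07 for Stra8, -0.58 for Meioc, -0.49 for Sohlh2 and -0.50 for Taf7l. Leaving out 1 library ended the call for Piwil1 and Piwil4 in 11 of 12 cases each, for Tex19.1 in 10 and for Smc1b in 5, and in none for the other 8 genes. The libraries whose absence left those calls in place were Neg EpiLCs replicate 3 for Piwil1, 3×KD ESCs replicate 2 for Piwil4, and Neg EpiLCs replicate 2 and 3×KD EpiLCs replicate 2 for Tex19.1. The 5 libraries for Smc1b were replicate 3 of Neg ESCs, 3×KD ESCs and Neg EpiLCs and replicates 1 and 2 of 3×KD EpiLCs. Groups of 3 libraries are too small for a test of single outlying libraries, and none was made.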

How the results depend on the processing

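Over all alternatives run, none of the 84 called log2 fold changes of members changed sign, and 56 kept the call under every alternative. Of 106 that were not called, 21 changed sign under some alternative and 7 were called under some alternative, and the largest of those that changed sign was 0.573 in size. Without the fold limit, 22 members and 8048 genes were called in 3×KD against Neg ESCs (12 and 3885 with it), 22 and 7610 in 3×KD against Neg EpiLCs (14 and 3367), and 9081 and 8602 genes in EpiLCs against ESCs in Neg and 3×KD (5292 and 4768), by construction of that alternative. With transcript-length offsets, 8 members were called in 3×KD against Neg EpiLCs (1 higher and 7 lower, against 5 and 9), 14 of 22 in 3×KD EpiLCs against ESCs, and 6 of 12 members and 731 of 2553 genes for the difference of effects. The cause was not tested.

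Leaving out 1 library at a time gave 10 to 14 members and 3417 to 3874 genes in 3×KD against Neg ESCs, 12 to 15 and 2934 to 3390 in EpiLCs, 22 to 24 and 4888 to 5263 in EpiLCs against ESCs in Neg, 17 to 22 and 4419 to 4802 in 3×KD, and 8 to 10 and 2084 to 2575 for the difference. Replicate numbers did not pair the libraries (correlations of deviations from -0.141 to 0.093). With the replicate number as a block, 12, 15, 24, 20 and 9 members and 3792, 3277, 5169, 4664 and 2321 genes were called in the same order of comparisons. Depth limits Spo11, Tdrd6, Piwil4, Syce3 and Mei1, each with 16 or fewer counts in Neg ESCs.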
